A study of Mus musculus with 15 samples.

Results

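Type 2 conventional dendritic cells (cDC2) of the mouse thymus were compared between mice in which CD11c-expressing cells lack the kinase LKB1 (KO) and wild-type mice (WT). The comparison used 5 of the 15 libraries of a study on 3 thymic dendritic cell subsets, chosen by their sample titles: 3 cDC2 KO libraries and 2 cDC2 WT libraries. All 22165 genes of the count table entered, scaled within these 5 libraries. The other 10 libraries, from cDC1 and plasmacytoid dendritic cells (pDC) of both genotypes, entered only where subsets were compared. The study's title places the question in how LKB1 in dendritic cells bears on regulatory T cells that arise in the thymus. KO mice were Itgax-cre Stk11 fl/fl, in which the Itgax promoter, that of the gene for CD11c, drives Cre, and Stk11 encodes LKB1. Whether the WT mice carried Cre or floxed alleles is not given in the sources used here. Mice of both genotypes were male and female, on a C57BL/6 background, and 8 to 12 weeks old. All of them, WT included, were injected under the skin with B16 melanoma cells that secrete Flt3L, which drives dendritic cell growth, and thymi were taken 9 to 12 days later. Cells were enriched on CD11c beads and cDC2 were sorted as CD11b+CD11c+MHCII+. Nothing in the labels tells whether replicates are separate mice or whether mice were pooled, so p-values measure only the spread between these samples.

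LKB1 is a serine/threonine kinase that, bound to STRAD and MO25 proteins, activates AMPK and a family of related kinases (SIK, MARK, NUAK and SNRK), and so couples cell energy to growth, polarity and lipid synthesis. Thymic cDC2 carry CD11b and SIRPa, many migrate into the thymus from the blood, and they present self antigen on MHC class II to developing T cells. Dendritic cells that mature raise CCR7, fascin and costimulatory molecules.

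Total counts ran from 6480821 to 12142712 in KO and were 3928164 and 6705249 in WT. The WT libraries were less complex: at an equal depth of 3928164 counts, 12622, 12743 and 12416 genes were detected in KO against 10840 and 11358 in WT. All KO libraries lay above both WT libraries, by 1495 genes on average (two-sided exact permutation test, p = 0.1, the smallest p that 3 against 2 samples allow). The 100 most abundant genes took 26.1% to 29.4% of the counts in KO and 26.7% and 26.5% in WT. Counts on mitochondrial genes took 1.80% to 1.99% in KO and 2.24% and 3.03% in WT, and those on ribosomal protein genes 5.21% to 6.10% and 4.17% and 4.16%, both without overlap (p = 0.1 each in the same exact permutation test). Long and short transcripts were also represented unequally. Tested genes were split by transcript length into 5 groups of equal number. Median log2 differences, KO minus WT, ran from 0.37 in the group with the shortest transcripts to −0.29 in that with the longest. Split the same way by GC content, they ran from −0.16 in the lowest to 0.28 in the highest group. Offsets per library for length and GC content brought the length groups to between 0.01 and 0.07. These offsets were fitted to the trends in the same libraries, so medians near 0 follow from the fit. A difference by genotype that is tied to length or GC content would be taken out as well. Complexity, the mitochondrial and ribosomal shares, and length representation moved with genotype in all 5 libraries. Their part in a difference between KO and WT therefore cannot be told apart from that of genotype. Values with these offsets are given beside many of the results.

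**Figure D1:**
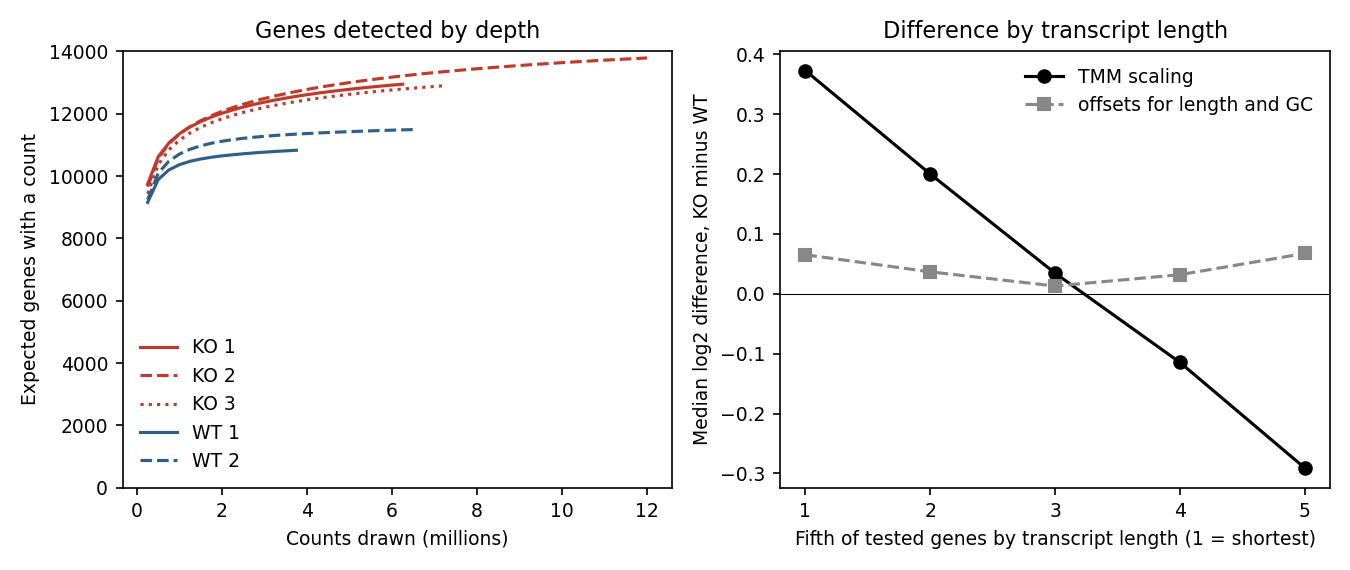
Left: expected number of genes with a count (y axis) against counts drawn from each library (x axis, in units of 1000000), 1 line per cDC2 library, red for KO and blue for WT. Right: median log2 difference, KO minus WT (y axis), in 5 equal groups of tested genes by transcript length (x axis, 1 = shortest), with TMM scaling (black) and with the offsets (grey). Both WT curves lie below the 3 KO curves at equal depth, and the black line runs from 0.37 to −0.29. The grey line stays between 0.01 and 0.07, which follows from fitting the offsets to this trend.

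The sort label was read against the cDC2 markers. Itgam (chr7:128062640-128118491, GRCm38), which encodes CD11b, stood at 215, 261 and 159 CPM in KO and at 110 and 106 CPM in WT, where CPM are counts per 1000000 counts of the TMM-scaled library. Sirpa, which encodes the CD47 receptor SIRPa, stood at 157, 219 and 149 CPM in KO and at 79.8 and 110 CPM in WT. Every KO library lay above both WT libraries for both markers, with log2 differences of 0.97 ± 0.30 (adjusted p = 0.238) and 0.88 ± 0.31 (adjusted p = 0.270) that did not pass the threshold of 0.05 (1.15 and 0.82 with the offsets). Here and below, p-values are those of edgeR's quasi-likelihood test, adjusted by the Benjamini-Hochberg method over 10662 tested genes, and ± after a log2 difference is its standard error. Itgam in cDC1 stood between 0.364 and 13.1 CPM, and Sirpa between 5.39 and 14.1 CPM, on the scale of all 15 libraries. In pDC Sirpa stood between 110 and 143 CPM, within its range in cDC2 on that scale (76.2 to 218 CPM), so its level did not set these libraries apart from pDC. Itgam shares its strand and most of its span with the annotated transcript Gm49368, and tags there could belong to either. Of the 20 cDC2 markers tested, 8 had a positive and 12 a negative difference, and their median log2 difference was −0.15 (0.02 over all tested genes) and −0.14 with the offsets. It turned to 0.085 without WT 1 and to 0.042 without WT 2. At an unadjusted p under 0.05, 3 were higher and 1 lower (8.32% and 5.78% of all tested genes). Zeb2, a transcription factor of the myeloid lineage, stood at 295, 373 and 431 CPM in KO and 551 and 644 CPM in WT, a log2 difference of −0.71 that was −0.17 with the offsets. The lectin gene Clec4a4 lay the other way, at 3.77, 11.3 and 1.86 CPM in KO against 0.509 and 0.781 CPM in WT. The cDC1 gene Xcr1 was at 58.6, 67.3 and 50.8 CPM in KO and at 236 and 67.5 CPM in WT, with WT 1 apart from the other 4 libraries, against 401 to 862 CPM in cDC1. Itgax, the gene of the sort marker CD11c, was at 248, 245 and 251 CPM in KO and at 192 and 153 CPM in WT (log2 difference 0.53 ± 0.26, adjusted p = 0.391). These are bulk samples, in which fewer cells of a type and less RNA per cell cannot be told apart.

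Stk11 itself was read at 36.7, 28.3 and 28.8 CPM in KO and at 35.9 and 36.3 CPM in WT, and the groups overlapped (log2 difference −0.21 ± 0.30, adjusted p = 0.785). Because tags come from the 3′ end and the position of the floxed exons is not stated, this level checks nothing about the deletion. Partners and substrates of LKB1 did not pass the threshold either. Of 19 tested genes of the LKB1 complex and the AMPK-related kinases, 0 passed edgeR's adjusted threshold (2 of all 10662 tested genes). An unadjusted p under 0.05 was reached by 0 (14.1% of all tested genes), and 0 passed with DESeq2 (273 of all tested genes). Of the 19 list members, 11 were positive and 8 negative, with a median log2 difference of 0.08 and of −0.08 with the offsets. Mark2, a polarity kinase, had the smallest p of the list at 33.8, 57.9 and 40.4 CPM in KO against 38.4 and 22 CPM in WT, and its groups overlapped. The AMPK subunit genes Prkab2 (77.6, 46.7 and 43.3 CPM against 80.1 and 72.5 CPM) and Prkaa1 (13.6, 16.6 and 7.89 CPM against 12.5 and 5.78 CPM) overlapped between genotypes as well. Stradb, which encodes a pseudokinase partner of LKB1, was at 3.33, 3.76 and 3.01 CPM in KO and at 1.53 and 2.03 CPM in WT (log2 difference 0.91 ± 0.72). It was the only one of the 19 members whose groups did not overlap, where 34.8% of all tested genes did not overlap.

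KO and WT cDC2 differed in 2 of 10662 tested genes (0.0188%), Rasgrf2 and Plcb1, both of them signalling genes near or at 0 in WT. Rasgrf2 (chr13:91880400-92131656, minus strand, GRCm38) encodes a calcium-regulated exchange factor that activates Ras and Rac. It stood at 14.5, 12.8 and 20.4 CPM in KO, and at 0 and 0.156 CPM in WT. All KO libraries were far above both WT libraries, which held 1 tag between them against 402 in KO. That is a count ratio of 157 after scaling (95% exact counting interval 28.1 to 6234, for counting error only), and the fitted log2 difference was 7.14 ± 0.79 (adjusted p = 0.0449). Plcb1 (chr2:134786067-135475258, plus strand) encodes phospholipase C beta 1, which turns signals of G protein-coupled receptors into inositol trisphosphate and diacylglycerol. Its level was 75.4, 66.7 and 53.6 CPM in KO, against 0 and 1.41 CPM in WT, with 1728 tags against 9. Plcb1 rose 77.3-fold (log2 difference 6.27 ± 0.70, adjusted p = 0.0449), and the groups were far apart. Neither gene overlaps another gene of the table.

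Both calls sat close to the threshold. They ended when any 1 of the 3 KO libraries was left out, with adjusted p-values of 0.308 to 0.543 for Rasgrf2 and for Plcb1, while the log2 differences stayed between 6.93 and 7.23 for Rasgrf2 and between 6.17 and 6.40 for Plcb1. Without WT 2 the remaining WT library held no Plcb1 tag, and the fitted log2 difference was 11.95. With the offsets for length and GC content both calls stayed, with log2 differences of 7.45 and 6.69 (adjusted p = 0.0333 each). On libraries thinned to equal depth, edgeR called Plcb1 (adjusted p = 0.0338) but not Rasgrf2 (log2 difference 9.09, adjusted p = 0.0750). With a filter at 10 CPM, Plcb1 missed the threshold in edgeR (adjusted p = 0.0525). Voom with sample weights called neither (adjusted p = 0.384 for Rasgrf2 and 0.335 for Plcb1). DESeq2 called both genes (adjusted p = 0.000228 for Rasgrf2 and 3.60e-19 for Plcb1). That tool called 273 genes in all, 175 higher and 98 lower, where edgeR called 0 lower genes but gave 616 of them an unadjusted p under 0.05 (5.78% of tested genes). Among the genes that DESeq2 called higher, 73 were in the group with the shortest transcripts and 9 in that with the longest, and of those called lower, 18 and 46. Between the genotypes, 20.5% of tested genes were higher and 14.2% lower with no overlap of the groups.

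Plcb4, which encodes a second phospholipase C beta and lies next to Plcb1 (chr2:135659011-136014593, plus strand), was at 79.5, 130 and 119 CPM in KO and at 33.3 and 31.7 CPM in WT. Its groups did not overlap, but it did not pass with edgeR (log2 difference 1.75 ± 0.33, adjusted p = 0.170) and did with DESeq2 (adjusted p = 0.000235). Tmx4, on the other side of Plcb1, had a log2 difference of −0.35 ± 0.31 (adjusted p = 0.622). The remaining tested phospholipase C and calcium genes did not, as a group, follow Plcb1 and Plcb4. Of 23 tested genes of that list, 8 were positive and 15 negative, with a median log2 difference of −0.18, and of 0.01 with the offsets. Below the filter on low counts, Plcd1 had 22 tags in KO and 0 in WT, and Plce1 had 25 and 1. In both, every KO library was above WT in CPM. Plcb2 stood at 283, 205 and 157 CPM in KO and at 250 and 177 CPM in WT, and Plcg2 at 105, 91.8 and 105 CPM against 126 and 84.1 CPM, with overlap in both. Atp2a2, the calcium pump of the endoplasmic reticulum, was at 101, 89.7 and 76.3 CPM in KO and at 180 and 114 CPM in WT. Genes near Rasgrf2 that are reported here showed no common direction: Msh3, a mismatch repair gene, had a log2 difference of −0.72 ± 0.30 and Zcchc9 one of 0.26 ± 0.29.

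**Figure D2:**
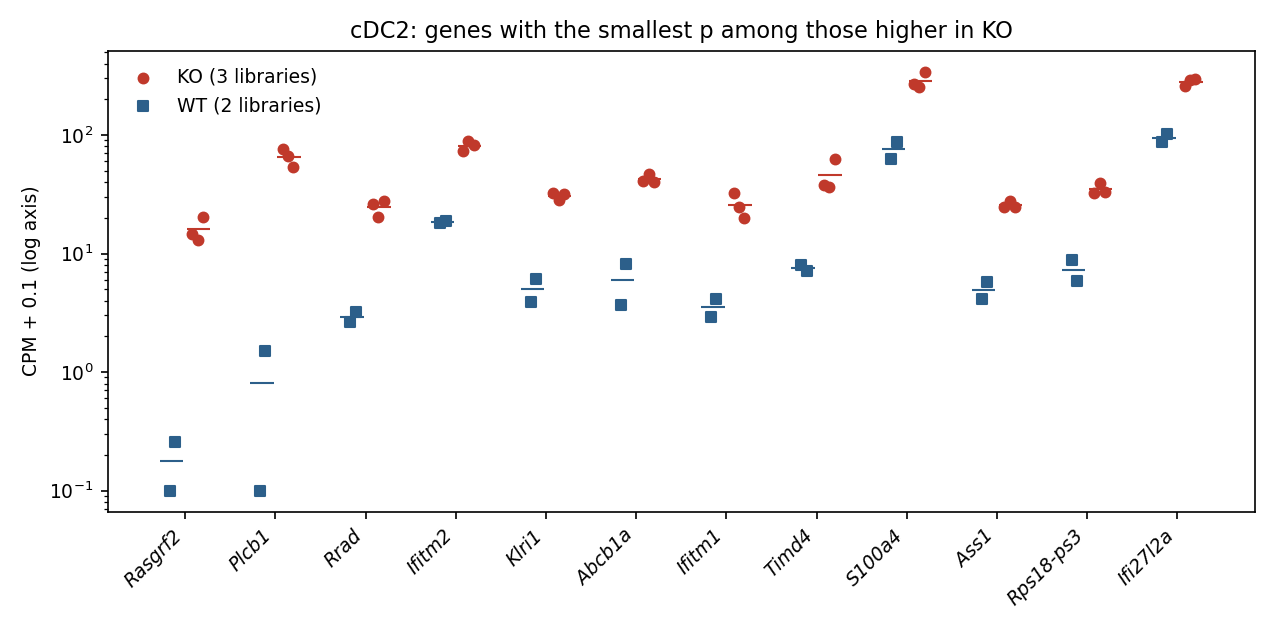
CPM plus 0.1 on a log axis (y axis) for the 12 genes with the smallest p among those higher in KO (x axis, ordered by p), red circles for the 3 KO libraries and blue squares for the 2 WT libraries, with bars at the group means. No gene's groups overlap, and Rasgrf2 and Plcb1, whose WT 1 libraries are at 0, are the 2 that passed the threshold.

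Next by p among the genes higher in KO came genes of varied function that did not pass. Rrad, a small GTPase that restrains calcium channels, stood at 26.1, 20.1 and 27.4 CPM in KO and at 2.54 and 3.13 CPM in WT (log2 difference 3.09, adjusted p = 0.132). Ifitm2 was at 73.2, 88.4 and 81.7 CPM against 18.1 and 18.8 CPM (2.14, adjusted p = 0.134), and its neighbour Ifitm1 at 32.3, 24.8 and 19.6 CPM against 2.80 and 4.06 CPM. These are interferon-induced membrane proteins of a family with similar sequences, and tags shared among its members could be split by the counting. Abcb1a, the drug efflux pump P-glycoprotein, was at 41.2, 46.8 and 39.9 CPM in KO and at 3.56 and 8.13 CPM in WT. The killer lectin-like receptor gene Klri1 was at 32.2, 28.2 and 31.7 CPM against 3.81 and 5.94 CPM. S100a4, a calcium-binding protein of motile cells, was at 268, 254 and 342 CPM in KO and at 63.1 and 87.7 CPM in WT (1.93, adjusted p = 0.136). Timd4, a receptor for phosphatidylserine on dying cells, was at 37.6, 36.4 and 63.1 CPM against 7.88 and 7.03 CPM. Ass1, the enzyme that makes argininosuccinate from citrulline, was at 24.5, 27.8 and 24.5 CPM against 4.07 and 5.63 CPM. In each of these genes all KO libraries were above both WT libraries, and DESeq2 called all 8, with Ass1 at the largest adjusted p (5.84e-05). With the offsets their log2 differences lay between 1.69 (S100a4) and 3.09 (Abcb1a). The pseudogene Rps18-ps3, also among the 12, shares sequence with its parent gene and is uncertain.

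Genes of the type I interferon response, the antiviral programme that interferon alpha and beta switch on, were mostly higher in KO, though none passed the adjusted threshold. Of 29 tested members, 26 were positive and 3 negative, where 51.4% of all tested genes were positive. The median log2 difference was 0.93, and 0.61 with the offsets, against 0.02 and 0.05 over all tested genes. Leaving out 1 library moved it between 0.78 and 0.93. With edgeR 0 members passed. An unadjusted p under 0.05 was reached by 14 members, all higher (8.32% of tested genes are higher at that p). DESeq2 called 7, all higher, where it called 175 of 10662 tested genes higher. In 18 members every KO library was above both WT libraries and in 0 below both (20.5% and 14.2% of all tested genes). The list was chosen with earlier results of these data known.

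The promoters of Isg15, Ifit1 and Rsad2 are shown because they are the members with the smallest p whose promoter window held the interferon-stimulated response element, the site through which interferon signalling activates these genes. The windows run from 250 bases before to 50 bases after the start site in RefSeq (GRCm38.p6), 5′ to 3′ on the gene's strand, with matches to the motif on either strand in capitals (GAAA, any 2 bases, then GAAA). Isg15 is at chr4:156200769-156201068 (minus strand), Ifit1 at chr19:34640639-34640938 (plus strand) and Rsad2 at chr12:26456403-26456702 (minus strand).
Isg15: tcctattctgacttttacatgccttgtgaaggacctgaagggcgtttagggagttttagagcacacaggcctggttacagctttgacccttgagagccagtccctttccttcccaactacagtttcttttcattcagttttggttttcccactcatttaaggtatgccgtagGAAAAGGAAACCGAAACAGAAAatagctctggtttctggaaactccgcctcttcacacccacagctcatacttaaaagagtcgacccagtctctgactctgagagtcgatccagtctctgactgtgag
Ifit1: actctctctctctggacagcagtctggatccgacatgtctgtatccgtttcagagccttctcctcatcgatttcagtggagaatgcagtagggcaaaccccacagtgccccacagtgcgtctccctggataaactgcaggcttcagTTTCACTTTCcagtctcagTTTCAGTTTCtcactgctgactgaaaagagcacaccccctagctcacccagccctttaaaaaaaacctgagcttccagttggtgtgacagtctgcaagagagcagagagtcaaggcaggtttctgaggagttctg
Rsad2: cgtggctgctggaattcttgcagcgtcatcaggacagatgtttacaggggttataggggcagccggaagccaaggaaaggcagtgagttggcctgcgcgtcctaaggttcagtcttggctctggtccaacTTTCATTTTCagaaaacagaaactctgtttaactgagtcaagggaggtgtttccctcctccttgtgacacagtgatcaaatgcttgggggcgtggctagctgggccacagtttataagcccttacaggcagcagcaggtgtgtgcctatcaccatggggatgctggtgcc
Isg15 held 3 overlapping matches, Ifit1 held 2 and Rsad2 held 1. Of the 21 tested interferon genes with a window in the table, 12 held the motif (57.1%), against 1131 of all 32851 windows (3.44%) and 351 of the 8480 tested genes with a window (4.14%). A match is a description of these letters and not a measured binding site.

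Isg15, a ubiquitin-like protein that is conjugated to other proteins, stood at 169, 176 and 202 CPM in KO and at 45.0 and 67.0 CPM in WT (log2 difference 1.70 ± 0.30, adjusted p = 0.168; 1.33 with the offsets). Ifit1, which binds foreign RNA caps, was at 443, 307 and 300 CPM in KO and at 89.8 and 158 CPM in WT (1.49 ± 0.35, adjusted p = 0.205; 1.48 with the offsets). Rsad2, the antiviral enzyme viperin, was at 345, 319 and 320 CPM against 180 and 165 CPM. In all 3 the lowest KO library was above the highest WT library. Ifi27l2a, a small interferon-induced protein, had the smallest p of the list, at 260, 289 and 297 CPM in KO and at 87.7 and 102 CPM in WT (1.57 ± 0.27, adjusted p = 0.168). Zbp1, a sensor of Z-form nucleic acid, was at 52.2, 67.8 and 60.2 CPM against 22.1 and 27.5 CPM. Ifi44 was at 263, 112 and 119 CPM in KO and 46.3 and 71.1 CPM in WT, with KO 1 apart. Irf7, the transcription factor that amplifies the response, was at 273, 236 and 335 CPM in KO and 174 and 103 CPM in WT, again without overlap.

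**Figure D3:**
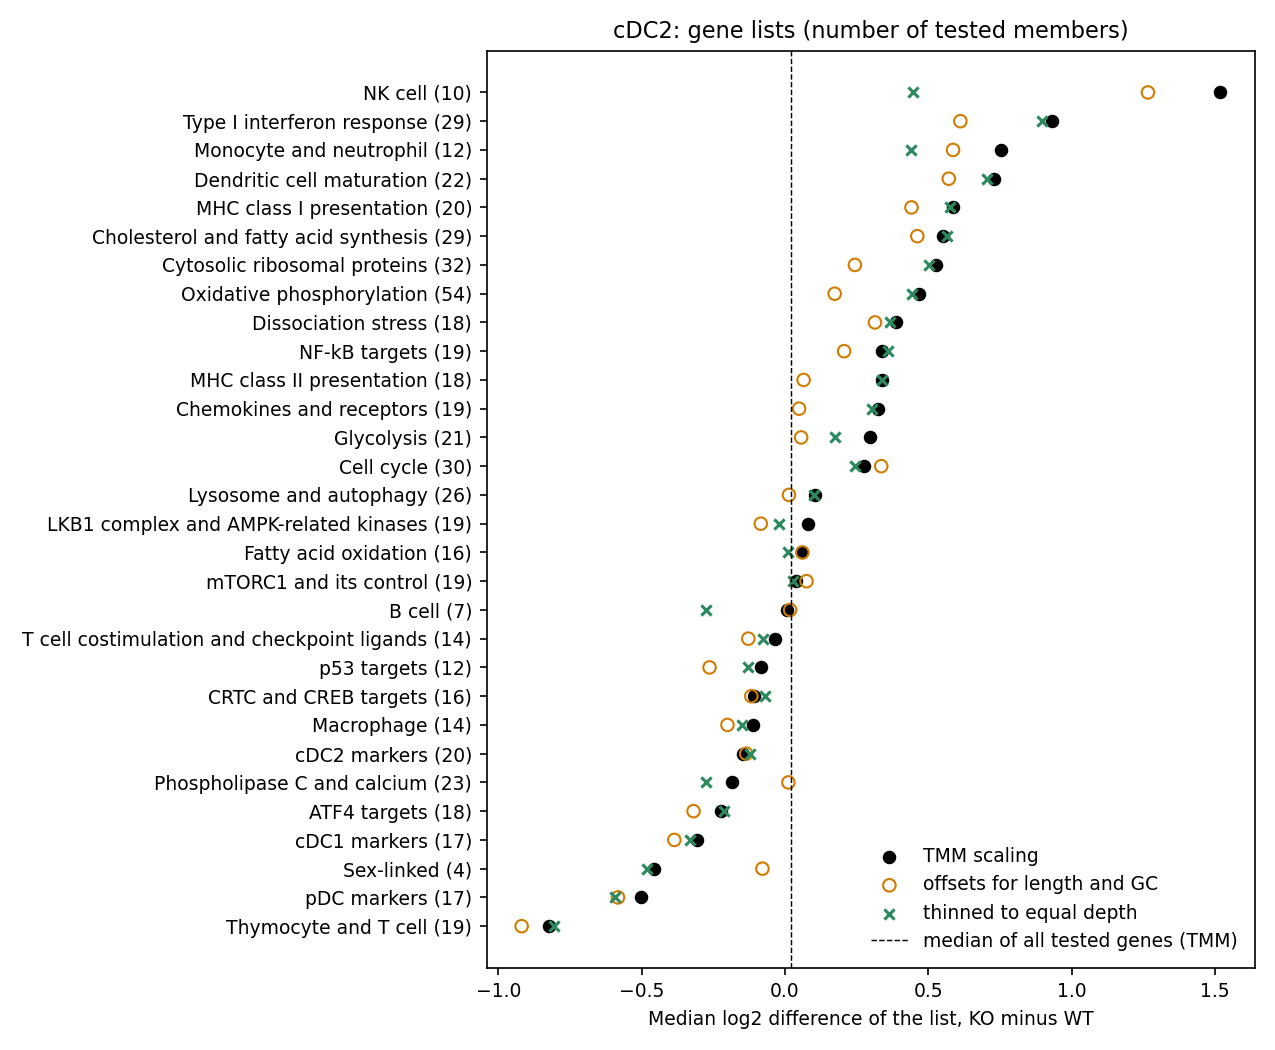
Median log2 difference, KO minus WT (x axis), of each gene list (y axis, with the number of tested members), for TMM scaling (black), offsets for length and GC content (orange rings) and libraries thinned to equal depth (green crosses); the dashed line is the median of all tested genes (0.02). The interferon list lies at 0.93, 0.61 with offsets, the thymocyte list at −0.82, and the NK cell list at 1.52, or at 0.45 when libraries are thinned.

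Genes of dendritic cell maturation were also mostly higher in KO without passing the threshold. Of 22 tested members, 19 were positive and 3 negative, with a median log2 difference of 0.73 and of 0.57 with the offsets (51.4% of all tested genes were positive). At an unadjusted p under 0.05, 10 were higher and 1 lower, where 8.32% of all tested genes were higher and 5.78% lower. edgeR called 0 at the adjusted threshold, and DESeq2 called 4 higher (Ccr7, Fscn1, Cacnb3 and Marcksl1) and 1 lower (Ccl17). Over all tested genes DESeq2 called 175 higher and 98 lower. Leaving out WT 2 moved the median to 1.22. Ccr7, the receptor that guides mature dendritic cells towards the thymic medulla and lymph nodes, stood at 605, 364 and 921 CPM in KO and at 114 and 303 CPM in WT. The groups did not overlap, but both spread widely (log2 difference 1.60 ± 0.50, adjusted p = 0.241; 1.29 with the offsets). Fscn1, the actin-bundling protein fascin of mature dendritic cells, was at 214, 128 and 169 CPM in KO and at 36.4 and 65.6 CPM in WT (1.74 ± 0.37, adjusted p = 0.204; 1.41 with the offsets). Cacnb3, a calcium channel subunit, was at 90.8, 52.1 and 50.2 CPM against 25.2 and 26.9 CPM, and Marcksl1, a regulator of the cell cortex, at 261, 222 and 249 CPM against 80.6 and 140 CPM.

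Ccl17, a chemokine that attracts CCR4-bearing T cells and is induced on maturation, lay the other way. It stood at 9.42, 27.4 and 34.4 CPM in KO and at 81.1 and 225 CPM in WT, so that all KO libraries were below both WT libraries (log2 difference −2.69, adjusted p = 0.204; −3.04 with the offsets). Costimulatory ligands showed no common direction. Of 14 tested costimulation and checkpoint genes, 7 were positive and 7 negative, with a median of −0.04. Cd86 was at 135, 207 and 205 CPM in KO and 250 and 277 CPM in WT, and Cd40 at 55.1, 48.5 and 61.5 CPM against 32.5 and 40.9 CPM, so that these 2 costimulatory genes were separated in opposite directions, each with an adjusted p above the threshold (0.424 and 0.406). Nectin2, a ligand of the receptors TIGIT and CD226, had 83 tags in KO against 1 in WT. That is a count ratio of 32.5 (95% exact counting interval 5.68 to 1299, for counting error only). Neither edgeR nor DESeq2 called Nectin2 (DESeq2 adjusted p = 0.0732). Tnfsf4, the OX40 ligand, fell below the filter on low counts and was not tested. It had 2, 13 and 6 tags in KO and 0 and 0 in WT.

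Among 19 tested chemokine and receptor genes, 11 were positive and 8 negative, with a median log2 difference of 0.32 and of 0.05 with the offsets. Ccr1, a receptor of inflammatory chemokines, was at 14.8, 16.4 and 16.9 CPM in KO and at 35.1 and 32.0 CPM in WT. Ccr6, the receptor for CCL20, lay the other way, at 101, 52.4 and 56.9 CPM against 35.6 and 29.2 CPM. Of 19 NF-kB targets, 13 were positive and 6 negative, with a median of 0.34 and of 0.21 with the offsets, and of 0.12 without KO 3. The cytokine gene Il1b was at 134, 255 and 136 CPM in KO and at 78.6 and 76.6 CPM in WT. Tnf was at 28.4, 23.5 and 79.6 CPM against 4.58 and 20.9 CPM, with KO 3 highest. Genes that respond to tissue digestion were also read. Of 18 such dissociation stress genes, 13 were positive and 5 negative (median 0.39, and 0.19 without KO 3). The heat shock gene Hspa1a was at 163, 284 and 530 CPM in KO and at 92.1 and 123 CPM in WT, with KO 3 highest again. Hspa1a and Hspa1b are near-identical copies whose tags cannot be assigned with certainty, and the part of dissociation stress in the maturation and NF-kB values was not tested.

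Antigen presentation genes were mostly higher in KO without passing, and with the offsets the median was smaller for class I and near 0 for class II. Of 20 class I genes, 17 were positive and 3 negative, with a median log2 difference of 0.59 and of 0.44 with the offsets. At an unadjusted p under 0.05, 8 were higher and 0 lower (8.32% and 5.78% of all tested genes), and 0 passed with edgeR or with DESeq2. The class I heavy chain gene H2-K1 stood at 1778, 1034 and 1268 CPM in KO and at 653 and 876 CPM in WT, and B2m, its light chain, at 2227, 1774 and 2386 CPM against 1473 and 1292 CPM. Tapbpl, the peptide editor TAPBPR, was at 133, 74.4 and 119 CPM against 31.5 and 56.0 CPM. In these 3 genes all KO libraries were above WT. Tap1, the peptide transporter, lay at 159, 144 and 160 CPM in KO and at 62.3 and 381 CPM in WT, with the WT libraries on both sides of KO.

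Of 18 class II genes, 14 were positive and 4 negative, with a median of 0.34 and of 0.06 with the offsets. edgeR called 0, and 3 were higher and 0 lower at an unadjusted p under 0.05 (8.32% and 5.78% of all tested genes). DESeq2 called the lysosomal proteases Ctsz and Lgmn, both higher. Ctsz was at 249, 264 and 322 CPM in KO and at 130 and 127 CPM in WT, and Lgmn at 136, 62.5 and 94.2 CPM against 36.9 and 37.2 CPM. The class II chain genes lay higher in KO by less: H2-Ab1 at 3547, 3638 and 4357 CPM against 2544 and 2790 CPM (log2 difference 0.53 ± 0.24, adjusted p = 0.359), and Cd74, the invariant chain, at 5505, 6906 and 6987 CPM against 4684 and 4535 CPM (0.49 ± 0.24, adjusted p = 0.389). Ciita, the transactivator of class II genes, did not follow genotype. It was at 73.9, 581 and 71.7 CPM in KO and at 810 and 73.8 CPM in WT, high in KO 2 and WT 1 only.

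Listed genes of oxidative phosphorylation and of the ribosome were mostly higher in KO, and their medians were smaller with the offsets for length and GC content. Of 54 tested genes of oxidative phosphorylation, 46 were positive and 8 negative, with a median log2 difference of 0.47 and of 0.17 with the offsets. At an unadjusted p under 0.05, 11 were higher and 0 lower (8.32% and 5.78% of all tested genes). edgeR called 0 and DESeq2 called Atp5f1, a subunit of ATP synthase, at 126, 163 and 133 CPM in KO against 71.7 and 54.1 CPM in WT. The list did not hold the mitochondrial genes mt-Nd2, mt-Nd4l, mt-Nd5 and mt-Nd6, which lay the other way. DESeq2 called them lower in KO (log2 differences of −1.47, −1.65, −1.75 and −2.96), and edgeR did not call them. Cyc1, cytochrome c1, was at 37.1, 36.2 and 44.3 CPM in KO and at 18.8 and 20.3 CPM in WT, a log2 difference of 1.00 that was 0.57 with the offsets. Of 32 cytosolic ribosomal protein genes, 24 were positive and 8 negative, with a median of 0.53 and of 0.24 with the offsets. There 11 were higher and 0 lower at an unadjusted p under 0.05 (again 8.32% and 5.78% of all tested genes). edgeR called 0 and DESeq2 called 3.

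Genes of lipid synthesis had mostly positive differences, and none passed. Of 29 genes of cholesterol and fatty acid synthesis, 24 were positive and 5 negative, with a median of 0.55 and of 0.46 with the offsets. That median was 0.35 without KO 1 and 0.32 with a filter at 10 CPM. edgeR and DESeq2 called 0 of these genes. At an unadjusted p under 0.05, 3 were higher and 1 lower, shares near those over all tested genes (8.32% and 5.78%). Fdft1, squalene synthase, was at 7.68, 12.0 and 6.60 CPM in KO and at 0.763 and 2.66 CPM in WT. Srebf2, the transcription factor that switches on sterol synthesis, was at 37.3, 48.9 and 45.0 CPM against 17 and 26.6 CPM, and Scap, the sterol-sensing escort of that factor, at 27.4, 21 and 17.8 CPM against 10.9 and 12.5 CPM. All 3 were separated with KO higher. Of the 29 genes, 8 were separated higher and 1 lower (20.5% and 14.2% of all tested genes). Acaca, acetyl-CoA carboxylase, the enzyme of fatty acid synthesis that AMPK inhibits, lay the other way at 14.4, 15.6 and 6.88 CPM in KO and 43.5 and 16.1 CPM in WT, with KO 2 and WT 2 almost level.

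Other metabolic and LKB1-linked groups had medians between −0.22 and 0.30. For 21 glycolysis genes the median was 0.30, and 0.06 with the offsets. Pfkp, a phosphofructokinase, stood at 140, 199 and 159 CPM in KO and at 320 and 347 CPM in WT (log2 difference −1.01 ± 0.26, adjusted p = 0.222), and was −0.57 with the offsets. The 16 genes of fatty acid oxidation had a median of 0.06. Among them Ppargc1b, a coactivator of mitochondrial genes, was at 5.36, 7.36 and 10.6 CPM in KO and at 36.1 and 24.5 CPM in WT, below both WT libraries in each KO library (−1.96 ± 0.40, adjusted p = 0.204; −2.13 with the offsets). The 19 genes of mTORC1 and its control had a median of 0.04, with Rictor at 51.8, 77.7 and 82.7 CPM in KO and 106 and 176 CPM in WT. Ddit4, an inhibitor of mTORC1, had 91 tags in KO and 1 in WT, a count ratio of 35.6 (95% exact counting interval 6.24 to 1423, for counting error only). Neither edgeR nor DESeq2 called Ddit4 (DESeq2 adjusted p = 0.0536). The 16 targets of CRTC and CREB, which the SIK kinases restrain, had 5 positive and 11 negative members with a median of −0.11 (−0.12 with the offsets). Without WT 2 that turned to 12 positive and 4 negative and a median of 0.21, and without KO 1 the median was 0.083. The 18 ATF4 targets had 8 and 10 with a median of −0.22 (−0.32 with the offsets), which turned to 0.055 without WT 2. Trib3 and Asns, which ATF4 induces under amino acid shortage, were at 0.430 to 1.01 CPM and at 0.725 to 1.52 CPM in KO, and at 2.54 and 7.03 CPM and at 2.29 CPM or more in WT. Neither passed (adjusted p = 0.242 and 0.257). Of 30 cell cycle genes, 23 were positive, with a median of 0.27 and of 0.34 with the offsets. The replication helicase subunit Mcm7 was at 125, 128 and 117 CPM in KO and at 64.1 and 66.6 CPM in WT, while Mcm4, another subunit, was at 55.0, 48.1 and 51.5 CPM against 66.6 and 146 CPM.

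No gene passed as lower in KO, and the 12 with the smallest p among those that were lower are shown as values. Ccr9, a homing receptor for CCL25 that pDC and thymocytes express, was at 29.4, 33.8 and 36.6 CPM in KO and at 142 and 92.5 CPM in WT (log2 difference −1.82, adjusted p = 0.151). Syne2, which links the nucleus to the cytoskeleton, was at 22, 31.3 and 22.5 CPM against 82.4 and 81.3 CPM (−1.69, adjusted p = 0.168). Srcap, a chromatin remodeller that deposits the histone variant H2A.Z, was at 25.5, 22.4 and 21.8 CPM against 70.4 and 67.7 CPM (−1.57). Replicates within each genotype were close in Syne2 and Srcap, while the WT libraries lay further apart in Ccr9, and DESeq2 called all 3. With the offsets the log2 differences were −1.50, −1.21 and −1.25. Ipmk, an inositol phosphate kinase, was at 23.2, 31.0 and 29.0 CPM in KO and at 66.4 and 112 CPM in WT. Pdgfa, a growth factor for mesenchymal cells, was at 17.3, 19.2 and 18.4 CPM against 44.0 and 53.3 CPM, and Sox12, a transcription factor, at 8.12, 13.4 and 11.8 CPM against 33.8 and 37.8 CPM. Pspc1, a paraspeckle protein, was at 73.4, 70.5 and 64.5 CPM in KO and at 215 and 139 CPM in WT. Itm2a, a membrane protein of thymocytes, was at 1.74, 2.08 and 4.59 CPM in KO and 12.5 and 33.9 CPM in WT. Adam30, of a family of membrane metalloproteases, was at 1.16, 6.48 and 3.73 CPM against 27.7 and 24.8 CPM. The mitochondrial gene mt-Nd6 was at 12.0, 10.8 and 27.4 CPM against 56.7 and 197 CPM, and since it lies antisense to other mitochondrial transcripts and the use of strand in the counting is not given, its tags are uncertain.

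**Figure D4:**
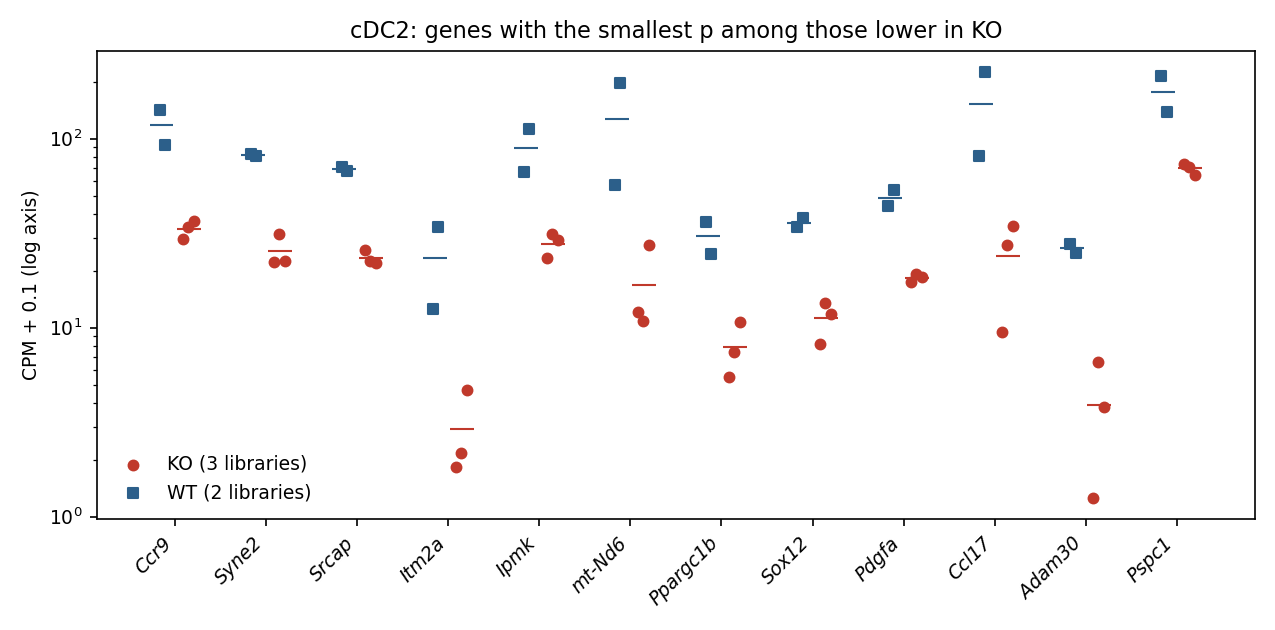
CPM plus 0.1 on a log axis (y axis) for the 12 genes with the smallest p among those lower in KO (x axis, ordered by p), red circles for the 3 KO libraries and blue squares for the 2 WT libraries, with bars at the group means. Every KO library lies below both WT libraries in each gene, and none of the 12 passed the threshold.

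Markers of other cells moved with genotype in part. The thymocyte and T cell list had 15 of 19 tested genes negative and a median log2 difference of −0.82, with summed levels of 234 to 279 CPM in KO and of 345 and 494 CPM in WT. Its median was −0.92 with the offsets but 0.14 without WT 2. Cd4, also a gene of pDC, was at 5.22, 3.36 and 5.16 CPM in KO and at 12.2 and 30.2 CPM in WT, and the T lineage factor Bcl11b at 10.4, 18.2 and 20.4 CPM against 44.2 and 42.2 CPM. The pDC list had 11 of 17 genes negative and a median of −0.50 (−0.58 with the offsets, −0.11 without WT 1), with sums of 1177 to 1256 CPM in KO and of 2129 and 1624 CPM in WT. Its members were split: Tcf4, the lineage factor of pDC, was at 727, 679 and 709 CPM in KO and 1316 and 1124 CPM in WT, with a log2 difference of −0.79 that was −0.27 with the offsets. Cox6a2, a cytochrome c oxidase subunit, was higher at 24.1, 24.7 and 27.8 CPM against 9.41 and 2.66 CPM, and the transcription factor gene Spib at 40.3, 35.6 and 33.1 CPM against 17.8 and 10.2 CPM. Ccr9 and Cd4, named above, stand between 3983 and 12969 CPM and between 131 and 194 CPM in pDC. The part of pDC and thymocyte RNA in the lower values of Ccr9, Itm2a and Cd4 was not tested.

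For cDC1 markers, 15 of 17 genes were negative with a median of −0.31, and sums were 3686 to 5296 CPM in KO and 6526 and 3987 CPM in WT, where WT 1 was highest and KO 1 next. Without WT 1 that median was 0.25. The NK cell list had 8 of 10 genes positive and a median of 1.52, which was 0.22 without KO 1, 0.32 without KO 2 and 4.35 without WT 1. Its sums overlapped, at 252 to 374 CPM in KO and 311 and 329 CPM in WT. Nkg7, Il2rb and Gzmb had 64, 88 and 49 tags in KO, most of them in KO 1 by level, and 0 in WT, at least 8.36-fold, 11.5-fold and 6.40-fold higher against a floor of 3 tags over the WT group. Macrophage sums (227 to 257 CPM in KO, 223 and 252 CPM in WT) and B cell sums (24.4 to 45.8 CPM and 52.4 and 28.1 CPM) overlapped. Of the macrophage list, Apoe, a lipid transport protein, stood at 29.7, 20.3 and 13.6 CPM in KO and at 61.0 and 55.2 CPM in WT. Timd4, on the same list, was higher. The monocyte and neutrophil list had 8 of 12 tested genes positive and a median of 0.75. Of these genes, 5 were separated higher and 0 lower (20.5% and 14.2% of all tested genes). That median was 0.41 without WT 1 and −0.0036 with a filter at 10 CPM, and the sums overlapped at 1802 to 2078 CPM in KO and 2170 and 1560 CPM in WT. Of the thymic epithelium and stroma list, 2 of 16 genes were tested, both with a negative difference. The sums of that list were 77.6 to 84.2 CPM in KO and 109 and 92.4 CPM in WT, without overlap. Its members below the filter were split. Krt18 had 31 tags in KO and 4 in WT and Aire 38 and 4, both with every KO library above WT in CPM. Foxn1, Col1a1 and Dcn lay the other way, with 5, 2 and 2 tags in KO and 13, 11 and 9 in WT, but their groups overlapped. Of 8 melanoma genes, 6 were at 0 in all 5 libraries, among them Dct, Mlana, Tyr and Tyrp1, while Pmel had 7 tags in KO and 0 in WT. Ly6g of neutrophils and Krt14 of epithelium were also at 0, but other members of their lists were not. Krt5 had 7 tags in KO and 0 in WT, Krt8 had 13 and 6, and Mpo had 1 and 15. Ddx3y, on the Y chromosome, was at 240, 205 and 252 CPM in KO and 291 and 253 CPM in WT, with KO 3 and WT 2 almost level and a log2 difference of −0.23 ± 0.25 (adjusted p = 0.712). Of 4 tested genes of the sex-linked list, 1 was positive and 3 negative, with a median of −0.46 (−0.08 with the offsets). Its sums were 306 to 359 CPM in KO and 414 and 402 CPM in WT, without overlap. The part of sex in these values was not tested.

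Whether an effect of genotype differed between cDC2 and the other subsets was tested in 1 fit of all 15 libraries over 11746 genes, from which the values in these last paragraphs come. The difference from cDC1 passed for 1 gene (0.00851%), Mctp2, which encodes a membrane-tethering C2-domain protein. In cDC2 it was low, with 3, 11 and 2 tags in KO and 12 and 35 tags in WT. In cDC1 the order was turned, with 14 and 12 tags in KO and 2 and 1 tags in WT, and in pDC it stood at 286 to 460 CPM with no order by genotype. The log2 differences were −2.81 in cDC2, 2.47 in cDC1 and 0.08 in pDC, and the difference between cDC2 and cDC1 was −5.28 ± 0.81 (adjusted p = 0.0472). It rests on few tags, and the call ended with the offsets (adjusted p = 0.0974), without any 1 of the 4 cDC1 libraries, and without cDC2 KO 1, KO 3 or WT 2. The difference itself was −4.87 with the offsets and −4.70 to −6.03 without single libraries. With Mctp2 included, 994 genes had an unadjusted p under 0.05 for this difference (8.46% of tested genes). For the difference from pDC 0 genes passed with edgeR, while 988 had an unadjusted p under 0.05 (8.41% of tested genes). DESeq2 was not run for differences between subsets. Among genes with an informative symbol, those with the smallest p for the difference from pDC were Mctp2 and Klk1, a kallikrein protease gene of pDC, with adjusted p = 0.139 each. Klk1 had no tag in the 3 cDC2 KO libraries and 6 and 3 tags in WT.

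The 2 genes that passed in cDC2 were also read in the other subsets. Plcb1 was also near 0 in WT and present in KO in the other subsets, at 6.67 and 6.27 CPM in cDC1 KO against 0 and 0 CPM, and at 45.9, 72.8 and 45.9 CPM in pDC KO against 0 CPM in all 3 WT libraries. It passed in each (adjusted p = 0.0431 in cDC1 and 1.03e-05 in pDC), where 3 (0.0255%) and 8 (0.0681%) of 11746 genes passed, against 14 (0.119%) in cDC2 in this fit. The differences from cDC2 did not pass (adjusted p = 0.786 and 0.358). Rasgrf2 stood at 5.76 and 5.83 CPM in cDC1 KO against 2.35 and 0.728 CPM, and at 2.64 to 4.90 CPM in pDC KO against 0 to 3.65 CPM. Its log2 differences were 7.20 in cDC2, where it missed the threshold in this fit (adjusted p = 0.0514), 1.93 in cDC1 and 1.16 in pDC, and the test of the difference did not pass (adjusted p = 0.507 against cDC1 and 0.358 against pDC).

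In this fit Ass1, Syne2 and Ifi27l2a passed in cDC2 (adjusted p = 0.0496 each), and none of them in cDC1 or pDC, but the differences between subsets did not pass. With the offsets in this fit, which then called 3 genes in cDC2, all of these calls ended. Cd4 and Mctp2 also passed in cDC2, both lower in KO (adjusted p = 0.0323 each). With the offsets Cd4 still passed (adjusted p = 0.0216) and Mctp2 did not. The log2 difference of Ass1 was 2.44 in cDC2, 0.33 in cDC1 and −0.73 in pDC, with adjusted p-values of 0.411 and 0.139 for the differences from cDC2. Syne2 had log2 differences of −1.63 in cDC2, −1.17 in pDC and 0.70 in cDC1, where the difference from cDC2 did not pass (adjusted p = 0.210). Itgam was higher in KO in all 3 subsets, by 1.03 in cDC2, 3.43 in cDC1 (adjusted p = 0.0431) and 3.68 in pDC (adjusted p = 0.000112). The difference of its effect between cDC2 and pDC was −2.65 ± 0.52 (adjusted p = 0.139). Ifi27l2a had log2 differences of 1.63, 0.09 and 0.82 in cDC2, cDC1 and pDC, and Ifit1 of 1.54, 1.26 and 0.66, with no difference between subsets past the threshold. Abcb1a, Ifitm2 and Timd4 had log2 differences of 3.50, 2.00 and 2.12 in cDC1, where their groups did not overlap and none passed (adjusted p = 0.781, 0.981 and 1). In pDC they were at or near 0: Timd4 was at 2.10, 0 and 0 CPM in KO and 0 CPM in WT, and Abcb1a at 0 CPM in KO 3 and Ifitm2 at 0.175 CPM in KO 3 overlapped WT.

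**Figure D5:**
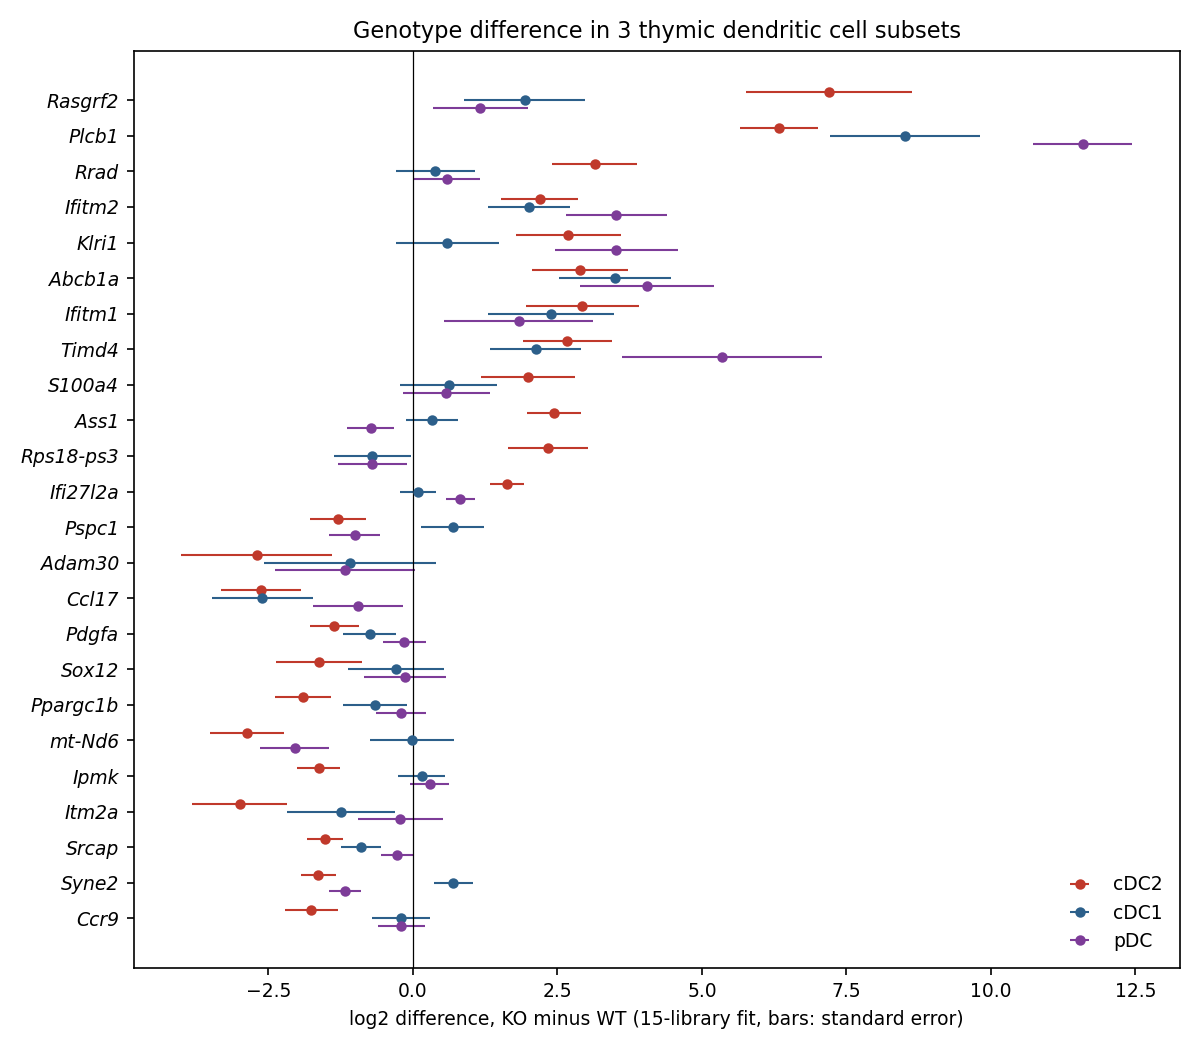
log2 difference, KO minus WT (x axis, bars are standard errors), in cDC2 (red), cDC1 (blue) and pDC (purple), for the 24 genes plotted by library above (y axis), all from 1 fit of the 15 libraries. Plcb1 lies to the right in all 3 subsets (6.33, 8.51 and 11.59; against WT groups at 0, as in cDC1 and pDC here and for Timd4 in pDC, the fitted size depends on the prior count and is no bound), and Rasgrf2 at 7.20 in cDC2 against 1.93 and 1.16.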

How the data were processed

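RNA was sequenced from the 3′ end, and the authors deposited 1 table of raw read counts per gene with a column for each library. Per the labels' protocols, cDNA was primed with barcoded oligo-dT and the libraries, pooled before PCR, keep the strand. STAR, HTSeq, DESeq2 and mm10 are named per the submitters' processing notes. The role and version of each, and any use of molecular identifiers, were not given in the sources used here.

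Columns were matched to samples by title. Symbols, positions, transcript length and GC content came from GENCODE M21 (GRCm38) for 21745 genes. In the 5 cDC2 libraries 7196 genes had no count. edgeR's filterByExpr kept 10662 genes, leaving out 0.123% of the counts. After TMM scaling, a robust quasi-likelihood model with 1 coefficient per genotype was fitted (edgeR 4.0.16, limma 3.58.1, R 4.3.3). P-values are two-sided and were adjusted by the Benjamini-Hochberg method over all tested genes, with a threshold of 0.05. Differences between subsets were tested in a like model of 15 libraries and 6 groups. Libraries were thinned to 3928164 counts to compare genes detected. The pipeline was tested on simulated data. Replicates differed by more than counting error (chi-square per degree of freedom 42.4 to 55.8). Counting intervals and floors of 3 counts cover counting error only.

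The comparison and the gene lists (33 lists, 653 symbols, 578 tested) were chosen with earlier results of these data known. Genes named are those past the threshold, the next by p up to 12 in each direction, up to 4 members of each list by p, up to 6 genes for each difference between subsets (otherwise 2), and Stk11, Itgam, Sirpa, Itgax, Plcb1, Ccr7, Tnfsf4, Xist and Ddx3y whatever their values. Prkaa1, Plcb2, Plcg2, Tmx4, Msh3, Zcchc9, Rsad2, Ifi44, Irf7, H2-K1, B2m, Tap1, H2-Ab1, Cd74, Ciita, Scap, Acaca, Mcm4, Krt18 and Aire were named for their role or position after their values were seen. So were Foxn1, Col1a1, Dcn, Krt5, Krt8, Pmel, Mpo, mt-Nd2, mt-Nd4l and mt-Nd5. Xist was not analysed here, and some genes that the rule or position would name are not reported here.

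Alternatives were the 15-library fit, RLE scaling, DESeq2 1.42.0, voom with sample weights, no filter, a filter at 10 CPM, a spread without robust estimation, thinning, offsets for length and GC content, a replicate block and leaving out each library. The offsets in the 15-library fit were added after seeing the data.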

Additional observations from a re-analysis of the deposited data

Results flagged for a closer look

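The effect of genotype on Mctp2 differed between cDC2 and cDC1 by a test of that difference: the log2 value in cDC2 minus that in cDC1 was −5.28, with −2.81 in cDC2 (lower in KO) and 2.47 in cDC1 (higher in KO). It rests on 2 to 35 tags per cDC2 library and 1 to 14 tags per cDC1 library, and the call ended without any 1 of the 4 cDC1 libraries.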

How the results depend on the processing

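With 2 genes called between KO and WT cDC2, RLE scaling, a spread without robust estimation and offsets for length and GC content also gave 2. The 15-library fit gave 14, no filter on low counts 49, DESeq2 273, thinning to equal depth 1, the 10 CPM filter 0 (1071 genes at an unadjusted p under 0.05) and voom with sample weights 0 (1011). The offsets in the 15-library fit, added after seeing the data, gave 3. Leaving out a library gave 0 to 169 genes: 0 without any 1 of the KO libraries, 146 without WT 1 and 169 without WT 2. For the difference between cDC2 and cDC1, 1 gene was called, 38 without the filter, 0 with the offsets and 0 to 2 without single libraries. For that between cDC2 and pDC, 0 were called, 88 without the filter and 0 to 1 without single libraries. Replicate numbers are not said to mark mice or days, and same-numbered libraries correlated at 0.0966 and −0.0736. As a replicate block they gave 3 genes in place of 2 (Plcb1, Ccl17 and Cldn12, with Rasgrf2 at an adjusted p of 0.0586), and 0 for the difference between cDC2 and cDC1. At 1000000 counts the gap in genes detected was 744 instead of 1495. Through these settings 71 genes were followed, many of them chosen for a small p in these same libraries. A kept sign was therefore likely beforehand, and its share over all tested genes was not taken. Of the 71 genes, 70 kept the sign of their difference in each setting that gave a value. The other, Ddx3y, turned from −0.23 to 0.057 with the offsets and to 0.10 with the offsets in the 15-library fit. Across lists and settings, 67 medians moved by more than the spread between replicates and 201 by less. With 2 WT libraries, 1 of them the shallowest of the 5, a gene that misses the threshold is not shown to be equal between genotypes.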

Other observations

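Some genes varied within a genotype by more than between genotypes. Ciita was at 581 CPM in KO 2 and 810 CPM in WT 1, and at 71.7 to 73.9 CPM in the other 3 cDC2 libraries. Tlr3, a receptor for double-stranded RNA, was at 105 CPM in WT 1 and 6.25 CPM in WT 2, with 12.5 to 35.2 CPM in KO. Atf4 was at 167 CPM in WT 1 and 1215 CPM in WT 2, with 687 to 949 CPM in KO. These genes were picked after their values were seen, and no test was run on them.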
